A study of Rattus norvegicus with 102 samples.

Results

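Semaphorins, plexins, ephrins and Eph receptors, the ligands and receptors of contact and short-range axon guidance, were examined in RNA from the CA1, CA3 and dentate gyrus (DG) subfields of the rat hippocampus. The members were all genes whose symbol begins with Sema and a digit, Plxn, Efna, Efnb, Epha or Ephb, which gave 51 of the 26284 genes listed: 20 semaphorins, 9 plexins, 8 ephrins and 14 Eph receptors. Tissue came from 34 male Fischer 344 rats (spelled Fisher 344 in the labels), 10 young (5 to 6 months) and 24 aged (17 to 22 months). Each rat gave 1 library from each subfield. The aged rats were classed by the Morris water maze as unimpaired (AU, 12 rats) or impaired (AI, 12 rats). The labels name no genetic change and no drug, so the groups differ by age, maze class and subfield. The same tissue samples were read as poly-A RNA on an Illumina instrument, again as poly-A RNA on an Ion Proton instrument, and in a further table marked WT whose library type was not given in the sources used here. Values are normalised counts, the reads of a gene divided by 1 size factor per library, and differences are on the log2(value + 1) scale with standard errors. The levels given are from the Illumina table unless another is named. Of the 51 members, 49 had a mean of at least 10 normalised counts and were tested between subfields, which Efna4 (mean 9.93) and Epha1 (mean 8.38) were not.

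Semaphorins are secreted or membrane-bound ligands that act mainly through plexins, and most class 3 semaphorins need a neuropilin as the ligand-binding partner of the plexin. Ephrins are membrane-bound ligands of the Eph receptor tyrosine kinases, with ephrin-A proteins held by a lipid anchor and binding mostly EphA receptors, and ephrin-B proteins spanning the membrane and binding mostly EphB receptors and EphA4. In the hippocampus these families are known for guiding mossy fibres, for pruning spines and axon branches, and, in the adult, for glia to spine contacts and synaptic plasticity.

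Promoters from RefSeq (assembly GRCr8) were matched by symbol for 41 of the 51 members, each as the 250 bases before the annotated start. The sequences of 4 members with large differences between subfields are shown because they carry or lack the most frequent motif of the list: Epha8 and Epha7, highest in DG and lowest in CA3, and Plxnd1 and Sema5b, highest in CA1. Capitals mark the GC box (GGGCGG or CCGCCC on either strand). The stretches are chr5:154476967-154477216 (minus strand), chr5:47771643-47771892 (plus strand), chr4:150715188-150715437 (minus strand) and chr11:78730590-78730839 (minus strand), printed 5′ to 3′ on the strand of the gene.
Epha8: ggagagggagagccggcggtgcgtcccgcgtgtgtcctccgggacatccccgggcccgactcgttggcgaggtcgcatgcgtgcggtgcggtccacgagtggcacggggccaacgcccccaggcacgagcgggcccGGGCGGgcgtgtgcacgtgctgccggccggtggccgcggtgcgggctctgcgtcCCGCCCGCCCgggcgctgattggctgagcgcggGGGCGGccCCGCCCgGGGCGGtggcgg
Epha7: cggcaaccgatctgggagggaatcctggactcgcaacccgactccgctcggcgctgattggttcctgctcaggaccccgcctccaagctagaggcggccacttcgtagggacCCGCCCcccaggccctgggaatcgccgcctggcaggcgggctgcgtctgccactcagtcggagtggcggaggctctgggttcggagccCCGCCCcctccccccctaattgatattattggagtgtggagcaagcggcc
Plxnd1: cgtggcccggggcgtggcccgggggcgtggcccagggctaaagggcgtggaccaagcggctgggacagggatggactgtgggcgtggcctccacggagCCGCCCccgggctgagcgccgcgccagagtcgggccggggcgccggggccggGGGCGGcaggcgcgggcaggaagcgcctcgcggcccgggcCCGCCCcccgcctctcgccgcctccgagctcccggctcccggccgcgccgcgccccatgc
Sema5b: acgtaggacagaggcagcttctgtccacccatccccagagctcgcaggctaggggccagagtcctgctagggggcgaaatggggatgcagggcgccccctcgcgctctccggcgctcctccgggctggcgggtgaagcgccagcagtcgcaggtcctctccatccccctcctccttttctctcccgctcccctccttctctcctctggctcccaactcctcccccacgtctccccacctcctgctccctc
Epha8 held 6 GC boxes, Plxnd1 3, Epha7 2 and Sema5b 0, so the motif was present on both sides of the DG to CA1 contrast. A GC box was found in 23 of the 41 promoters (56.1%) and in 30.5% of all 33469 promoters of the same length. Motifs were searched on both strands. None of the 41 held TATAAA, which 12.9% of all promoters held. CCAAT was found in 36.6% of the members and 34% of all promoters. The E-box CAGCTG was in 22.0% of the members against 12.0% of all promoters. The E-box CAGATG was in 7.32% of the members against 14.0%. The cyclic AMP response element TGACGTCA was in 1 member promoter (2.44%) and 1.59% of all. The median GC content was 61.2% over the members and 51.2% over all promoters, and GC boxes follow base composition; a match is a description of letters and not a binding site.

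Depth ran from 3.25 to 42.8 M reads per Illumina library (median 10.7) and from 4.47 to 21.4 M reads per Ion Proton library. By the CA1, CA3 and DG marker genes, 10 libraries lay nearer to another subfield than their label in both poly-A tables (1 CA1, 5 CA3 and 4 DG libraries, from 7 rats), and the counts of called members and the larger differences between subfields are also given without them. The CA1 and DG libraries of R9869 each lay nearer to the other's subfield, and their labels were kept. The DG marker list had its highest summed level in DG libraries (median 5087, range 595 to 7820.3), but it was also higher in CA1 (2343, 552 to 4360.4) than in CA3 (738, 439 to 5596), with 5 of its 5 tested genes called for CA1 against CA3. The oligodendrocyte list was called higher in CA1 and in CA3 than in DG for 8 of 8 genes, with summed medians of 131245, 158975 and 78027 and ranges of 77086 to 300499, 56698 to 393994 and 46350.5 to 226046. Rat numbers in the labels fall below 9000 (18 rats) or from 9000 up (16 rats), each with young, AU and AI rats, and no label says what the numbers mark. The rats came from 2 colonies and were trained at 2 sites, with 5 young and 11 aged rats at one and 5 and 13 at the other, which are also the counts of the number series, but no label ties a rat number to a site. Among the 10 libraries nearer to another subfield, the rats were numbered from 9000 up in 6 of 7. In tissue pieces such as these, fewer cells of a type and less RNA per cell cannot be told apart.

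The first question was which of these genes differ between subfields regardless of age and maze class. Members were called when limma gave an adjusted p under 0.05 in both poly-A tables with one direction. Between CA1 and CA3, 11 of 49 members were called (9 higher in CA1, 2 lower), where 14.4% of all 13907 genes tested were called. Between CA1 and DG, 28 of 49 were called (17 higher in CA1, 11 lower), against 26.9% of all genes. Between CA3 and DG, 29 of 49 were called (17 higher in CA3, 12 lower), against 28.5% of all genes. The median absolute log2 difference of the members was 0.22, 0.367 and 0.353 in the order of these contrasts, beside 0.0905, 0.131 and 0.133 for all genes. DG was thus the subfield from which most members differed, in both directions. Without the 10 libraries nearer to another subfield, 17, 29 and 30 members were called in the same order of contrasts (17.2%, 28.4% and 31.6% of all genes). In rats numbered below 9000 alone 21, 24 and 22 were called (21.8%, 15.7% and 23.4% of all genes), and in rats from 9000 up alone 11, 23 and 29 (3.95%, 20.9% and 22.0%). No pair of subfields was free of overlap for any member, so each call is a shift of overlapping distributions.

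**Figure D1:**
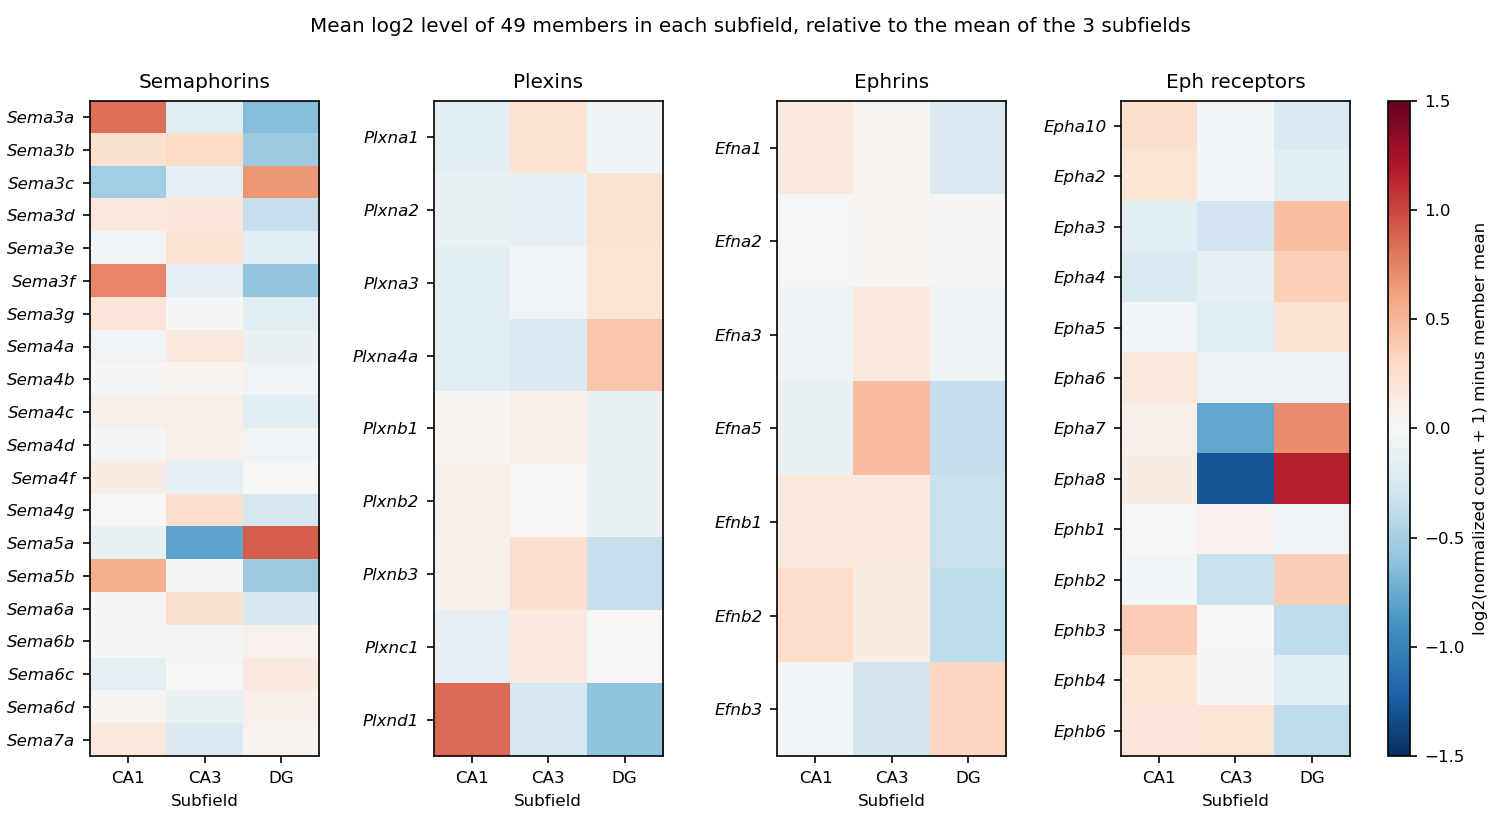
Mean log2(normalised count + 1) of each of the 49 tested members in CA1, CA3 and DG of the Illumina table, as the difference from the member's mean over the subfields (colour scale in log2 units). Epha8 spans the widest range, from -1.28 in CA3 to 1.17 in DG, while Plxnd1 (0.85 in CA1) and Sema3a (0.82 in CA1) are the members furthest above their mean in CA1.

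A member was counted as subfield specific when it was called in one direction against both other subfields. In CA1 5 members were specific (4 higher: Plxnd1, Sema3f, Sema5b and Ephb3; 1 lower: Plxnc1), where 5.71% of all genes were. In CA3 5 were specific (Sema4a higher; Epha8, Sema5a, Epha7 and Ephb2 lower), where 6.29% of all genes were. The CA3 count was 8 with edgeR, 9 with DESeq2, 11 in rats below 9000 (11.9% of all genes), 10 without the 10 libraries nearer to another subfield (8.55%) and 12 with the WT table as the second table. For edgeR, DESeq2 and the WT table the share of all genes is not given, so those counts cannot be read as particular to the members. In DG 21 were specific (9 higher, 12 lower), where 15.1% of all genes were. Within one number series, 15 were specific to DG below 9000 (7.74% of all genes) and 18 from 9000 up (11.9%), and of the 21 over all rats 7 were so in both series: Epha3, Epha7, Ephb6, Plxna2, Plxna4a, Plxnb3 and Sema5a. The 9 higher in DG were Epha8, Sema5a, Epha7, Sema3c, Epha3, Plxna4a, Ephb2, Epha4 and Plxna2, with mean differences from the other subfields of 1.75 down to 0.35 on the log2 scale. The 12 lower in DG were Plxnd1, Sema5b, Sema3b, Ephb6, Ephb3, Plxnb3, Efnb1, Sema4g, Sema6a, Epha10, Efna1 and Sema4c, with mean differences of -0.90 to -0.25. Some members count under more than 1 subfield, since a gene can be high in one and low in another. Called in no contrast were 12 members: Efna2, Epha2, Epha6, Ephb1, Ephb4, Plxnb1, Sema3d, Sema4b, Sema4d, Sema4f, Sema6b and Sema6c.

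Among the 20 semaphorins, 4 higher and 1 lower in CA1 than CA3 were called, 8 higher and 2 lower in CA1 than DG, and 7 higher and 3 lower in CA3 than DG. Sema5a (ENSRNOG00000011977, chromosome 2), a membrane-bound semaphorin known in mice to limit synapse number on granule cells, had a median of 5514 in DG (lowest 1382, highest 8033), 2593 in CA1 (lowest 1129.9, highest 4815) and 1411 in CA3 (lowest 749.7, highest 7749). It was highest in DG and lowest in CA3, and the DG library lay above the CA3 library of the same rat in 31 of 34 rats, although the ranges overlapped. The CA3 minus DG difference was -1.69 ± 0.14 (adjusted p = 1.80e-18) and the CA1 minus CA3 difference 0.67 ± 0.14 (adjusted p = 6.70e-05). Without the 10 libraries nearer to another subfield these were -2.01 and 0.86. The DG marker list had the same order of subfields as Sema5a; its part in the difference was not tested.

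Sema5b (ENSRNOG00000002238, chromosome 11), its class 5 paralogue, had another order, with a median of 260.5 in CA1 (lowest 127, highest 391), 165 in CA3 (lowest 102.2, highest 445) and 105 in DG (lowest 79.6, highest 230.1). CA1 lay above DG in 33 of 34 rats and above CA3 in 25, with overlapping ranges. The differences were 1.08 ± 0.10 against DG (adjusted p = 1.18e-16), 0.51 ± 0.10 against CA3 (adjusted p = 1.28e-05) and 0.56 ± 0.10 between CA3 and DG (adjusted p = 7.77e-07). They were 1.16, 0.57 and 0.59 without the 10 libraries nearer to another subfield. The difference from CA3 was found in 1 series of rat numbers: it was 1.01 ± 0.11 in rats numbered below 9000 and -0.05 ± 0.13 in those from 9000 up.

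Class 3 semaphorins are the secreted class. Sema3c (ENSRNOG00000006526, chromosome 4) had a median of 572 in DG (lowest 208, highest 989.5), 423 in CA3 (lowest 109, highest 784) and 231 in CA1 (lowest 113, highest 501). DG lay above CA1 in 33 of 34 rats and above CA3 in 25. The difference from DG was -1.19 ± 0.16 for CA1 (adjusted p = 5.40e-10) and -0.79 ± 0.16 for CA3 (adjusted p = 1.20e-05), while the CA1 to CA3 difference was not called over all rats (-0.39 ± 0.16, Illumina adjusted p = 0.0419, Ion Proton 0.0815). Sema3b (ENSRNOG00000016512, chromosome 8) had the reverse pattern, with a median of 314 in CA1 (lowest 163, highest 525), 341 in CA3 (lowest 130.1, highest 592) and 178 in DG (lowest 101, highest 367). It was lower in DG than in CA3 in 28 rats (0.85 ± 0.12, adjusted p = 1.06e-09) and than in CA1 in 31 rats (0.79 ± 0.12, adjusted p = 1.32e-08), and CA1 and CA3 were not called apart (-0.06 ± 0.12). The oligodendrocyte list moved the same way between DG and the other subfields, and its part in Sema3b was not tested.

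Sema3f (ENSRNOG00000017704, chromosome 8), which acts through neuropilin 2 and is known for pruning of mossy fibre branches, had a median of 51.9 in CA1 (lowest 10.8, highest 175), 25.8 in CA3 (lowest 6.39, highest 124) and 19.3 in DG (lowest 6.98, highest 130.1). CA1 exceeded DG in 30 and CA3 in 24 of 34 rats. The differences were 1.32 ± 0.23 (adjusted p = 8.33e-07) and 0.87 ± 0.23 (adjusted p = 0.00152), and CA3 and DG were not called apart (0.45 ± 0.23). Sema3a (ENSRNOG00000023337, chromosome 4), the classical repellent that acts through neuropilin 1 and plexin-A, was the lowest member tested here, with more than 3 reads in 86 Illumina libraries. Its median was 22.0 in CA1 (lowest 6.43, highest 72.3), 7.86 in CA3 (lowest 1.29, highest 127) and 7.14 in DG (lowest 1.34, highest 80.9). It gave the largest CA1 to DG difference of the list together with Plxnd1, 1.46 ± 0.27 (adjusted p = 3.54e-06), and was higher in CA1 in 32 of 34 rats. The CA1 to CA3 difference of 1.01 ± 0.27 passed in the Illumina table (adjusted p = 0.00203) and not in the Ion Proton table (0.78 ± 0.33, adjusted p = 0.0959). At these levels the added count of 1 lowers the fitted difference.

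The other class 3 members were Sema3e, the ligand of plexin-D1, higher in CA3 than DG (0.38 ± 0.08), Sema3g, higher in CA1 than DG (0.37 ± 0.13), and Sema3d, called in no contrast in both tables although its Illumina differences from DG were 0.52 for CA1 and 0.53 for CA3. In class 4, Sema4a was higher in CA3 than in CA1 (-0.22 ± 0.04 for CA1 minus CA3) and in DG (0.27 ± 0.04), with medians of 595, 681 and 558 in CA1, CA3 and DG. Sema4c and Sema4g were lower in DG than in both other subfields, by 0.24 and 0.27 from CA1 and by 0.26 and 0.53 from CA3. Sema4b, Sema4d and Sema4f were called in no contrast. In class 6, Sema6a, a ligand of plexin-A2 and plexin-A4 that oligodendrocytes also express, was lower in DG than in CA1 (0.26 ± 0.07) and CA3 (0.49 ± 0.07). Sema6d was lower in CA3 than in DG (-0.19 ± 0.06), and Sema6b and Sema6c were not called, with all their differences between -0.30 and 0.00. Sema7a, the lipid-anchored semaphorin, was higher in CA1 than in CA3 (0.37 ± 0.09).

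Among the 9 plexins, 1 higher and 1 lower in CA1 than CA3 were called, 3 higher and 4 lower in CA1 than DG, and 3 higher and 2 lower in CA3 than DG. Plxnd1 (ENSRNOG00000025209, chromosome 4), the receptor of Sema3e, had a median of 698 in CA1 (lowest 461, highest 933), 281 in CA3 (lowest 147, highest 876) and 221 in DG (lowest 137, highest 935). CA1 was above DG in 33 and above CA3 in 29 of 34 rats, and the highest CA3 and DG libraries, of rats R9860 and R9865, lay inside the CA1 range or above it. The differences were 1.45 ± 0.13 against DG (adjusted p = 1.96e-17), 1.10 ± 0.13 against CA3 (adjusted p = 1.21e-11) and 0.35 ± 0.13 between CA3 and DG (adjusted p = 0.0146). Without the 10 libraries nearer to another subfield they were 1.55, 1.14 and 0.41. Its ligand Sema3e had medians of 625 in CA3, 504 in CA1 and 444 in DG. The CA3 library of Sema3e exceeded the DG library in 18 of 18 rats numbered below 9000 and in 9 of 16 from 9000 up.

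The class A plexins, which pair with neuropilins for class 3 ligands and bind class 6 semaphorins directly, had no shared order. Plxna2 and Plxna4a were higher in DG than in CA1 (-0.34 ± 0.05 and -0.60 ± 0.10 for CA1 minus DG) and than in CA3 (-0.35 ± 0.05 and -0.64 ± 0.10). Plxna3 was lower in CA1 than in DG (-0.37 ± 0.06), and Plxna1 was higher in CA3 than in DG (0.30 ± 0.08). For Plxna1 this held in 18 of 18 rats numbered below 9000 and in 4 of 16 from 9000 up. Among class B plexins, Plxnb3, known from oligodendrocytes and a receptor of Sema5a, was lower in DG than in CA1 (0.43 ± 0.08) and CA3 (0.62 ± 0.08), as the oligodendrocyte list was; the part of that list was not tested. Plxnb2, a receptor of Sema4c, was higher in CA1 than in DG (0.19 ± 0.05), and Plxnb1, a receptor of Sema4d, was called in no contrast (-0.04, 0.13 and 0.17). Plxnc1, the receptor of Sema7a, was lower in CA1 than in CA3 (-0.30 ± 0.05, adjusted p = 1.33e-07) and DG (-0.16 ± 0.05), with medians of 369.7, 467 and 407 in CA1, CA3 and DG. Its ligand Sema7a was higher in CA1 than in CA3 in 7 of 18 rats numbered below 9000 and in 14 of 16 from 9000 up.

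Of the 7 ephrins tested, none was called between CA1 and CA3, 3 higher and 0 lower in CA1 than DG were called, and 4 higher and 1 lower in CA3 than DG. Efnb1 was lower in DG than in CA1 (0.51 ± 0.08, adjusted p = 1.33e-08) and CA3 (0.50 ± 0.08, adjusted p = 1.98e-08), with medians of 184, 183 and 130.2 in CA1, CA3 and DG. Efna1 had the same order (0.38 ± 0.08 and 0.27 ± 0.08). Efna3, the ephrin-A found on astrocytes beside spines, and Efna5 were higher in CA3 than in DG (0.24 ± 0.07 and 0.83 ± 0.20). Efnb2 was higher in CA1 than in DG (0.65 ± 0.16). Efnb3, in contrast, was lower in CA3 than in DG (-0.60 ± 0.11) and so was the 1 ephrin called higher in DG. Its CA3 library exceeded its DG library in 0 of 18 rats numbered below 9000 and in 7 of 16 from 9000 up. Efna2 did not differ beyond its error in any contrast (-0.03, 0.02 and 0.05, SE 0.05 each). Efna4, below the filter, had medians of 10.2, 9.19 and 9.04 and was not tested.

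Of the 13 Eph receptors tested, 4 higher and 0 lower in CA1 than CA3 were called, 3 higher and 5 lower in CA1 than DG, and 3 higher and 6 lower in CA3 than DG. Epha8 (ENSRNOG00000013036, chromosome 5), a receptor tyrosine kinase for ephrin-A ligands, had a median of 1489 in DG (lowest 510.2, highest 3673), 730.3 in CA1 (lowest 195, highest 1563) and 240.2 in CA3 (lowest 85.2, highest 1631). The DG library exceeded the CA3 library in 33 of 34 rats and the CA1 library in 29, and the CA1 library exceeded the CA3 library in 28. The ranges overlapped, and rat R9865 held the highest CA3 and the lowest DG library. Its CA3 minus DG difference of -2.45 ± 0.19 was the largest of any member in any contrast (adjusted p = 1.42e-19; Ion Proton -2.33 ± 0.20). The CA1 minus CA3 difference was 1.40 ± 0.19 (adjusted p = 3.60e-09) and the CA1 minus DG difference -1.05 ± 0.19 (adjusted p = 2.36e-06). Without the 10 libraries nearer to another subfield, these 3 values were -2.78, 1.59 and -1.19.

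Epha7 (ENSRNOG00000007030, chromosome 5), another receptor for ephrin-A ligands, had the same order, with a median of 1949 in DG (lowest 706, highest 2933), 1156 in CA1 (lowest 382, highest 2353) and 615 in CA3 (lowest 278, highest 1765). DG exceeded CA3 in 33 of 34 rats, and the CA3 minus DG difference was -1.49 ± 0.13 (adjusted p = 1.11e-17). CA1 lay between them, 0.86 ± 0.13 from CA3 and -0.63 ± 0.13 from DG. Ephb2 (ENSRNOG00000012531, chromosome 5), which interacts with NMDA receptors at synapses, also had that order, with a median of 258 in DG (lowest 164, highest 329), 188 in CA1 (lowest 128, highest 295) and 151 in CA3 (lowest 87.8, highest 276). Its differences were smaller, -0.71 ± 0.07 for CA3 minus DG (adjusted p = 7.50e-16), 0.29 ± 0.07 for CA1 minus CA3 and -0.42 ± 0.07 for CA1 minus DG. Epha3 (ENSRNOG00000030285, chromosome 11) was higher in DG than in both other subfields and not called between CA1 and CA3, with a median of 142 in DG (lowest 71.8, highest 198), 93.3 in CA1 (lowest 50.5, highest 139) and 86.2 in CA3 (lowest 28.4, highest 153). DG exceeded CA3 in 31 and CA1 in 30 of 34 rats, and the differences were -0.74 ± 0.09 and -0.60 ± 0.09 (adjusted p = 5.09e-11 and 3.86e-08). The order DG, CA1, CA3 of Epha8, Epha7 and Ephb2 was also that of the DG marker list, whose part was not tested.

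Ephb3 (ENSRNOG00000031801, chromosome 11) was the 1 Eph receptor specific to CA1, with a median of 329 in CA1 (lowest 164, highest 433), 241 in CA3 (lowest 179, highest 461) and 185 in DG (lowest 145, highest 397). CA1 was above DG in 32 and above CA3 in 29 of 34 rats, by 0.76 ± 0.08 (adjusted p = 1.18e-14) and 0.38 ± 0.08 (adjusted p = 3.46e-05), and without the 10 libraries by 0.86 and 0.42. Epha4, which binds both classes of ephrin, was higher in DG than in CA1 (-0.59 ± 0.10 for CA1 minus DG) and CA3 (-0.49 ± 0.10), and Epha5 higher in DG than in CA3 (-0.40 ± 0.10). For Epha5 the CA3 library exceeded the DG library in 7 of 18 rats numbered below 9000 and in 1 of 16 from 9000 up. Lower in DG were the receptors without kinase activity, Ephb6 (0.56 ± 0.06 for CA1 minus DG and 0.59 ± 0.06 for CA3 minus DG) and Epha10 (0.49 ± 0.06 and 0.18 ± 0.06). Epha2, Epha6, Ephb1 and Ephb4 were called in no contrast, with differences from -0.06 to 0.26 between CA1 and CA3. For CA1 minus DG, Epha2 and Ephb4 passed an adjusted p of 0.05 in the Illumina table alone. Epha1 was below the filter, with medians of 7.05, 6.96 and 8.04 normalised counts in CA1, CA3 and DG.

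**Figure D2:**
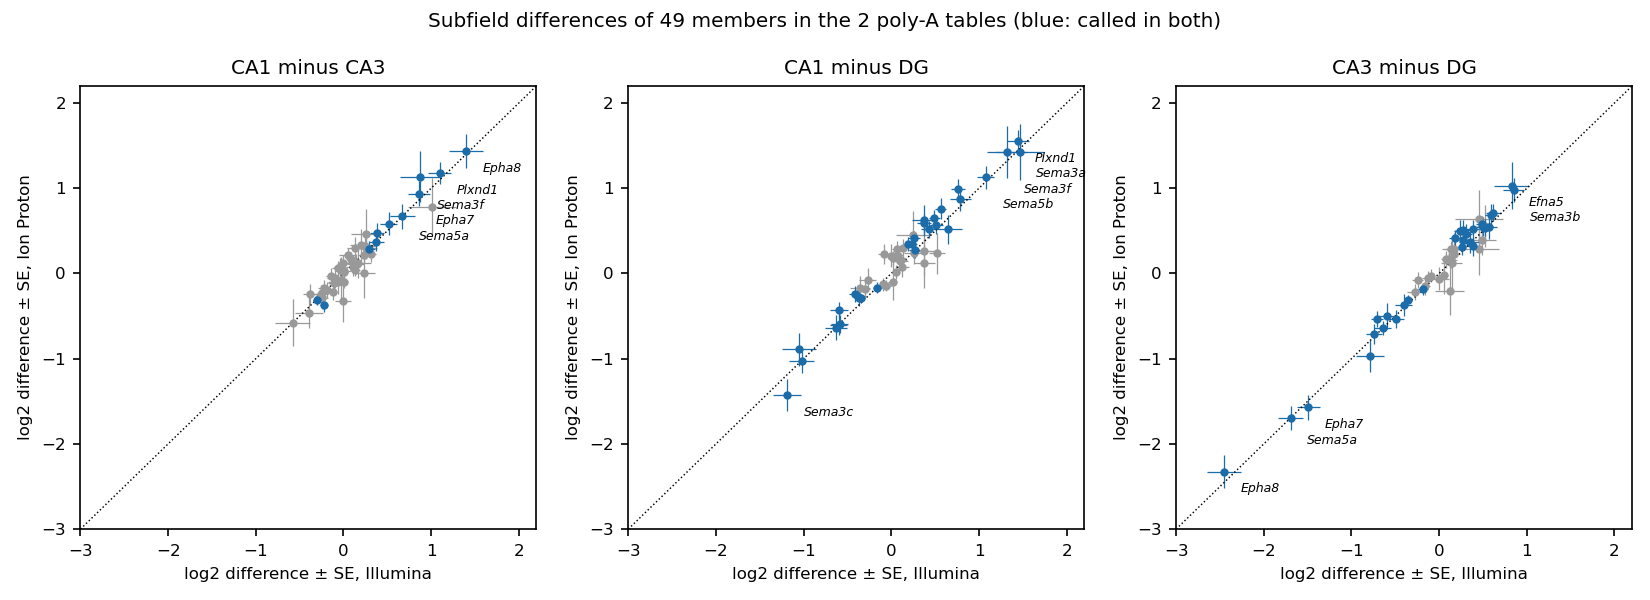
Log2 difference of each of the 49 tested members with its standard error in the Illumina table (x) and the Ion Proton table (y), for CA1 minus CA3, CA1 minus DG and CA3 minus DG; blue points were called in both tables. The sign was the same in both tables for 43, 46 and 47 of the 49 members, and Epha8 lies farthest from zero in CA3 minus DG, at -2.45 and -2.33.

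Taken alone, the Illumina table put 22 members past an adjusted p of 0.05 for CA1 minus CA3, 35 for CA1 minus DG and 37 for CA3 minus DG, where 35.4%, 55.6% and 55.6% of all genes passed. The Ion Proton table alone put 11, 30 and 30 past it, and 15.8%, 30.2% and 30.1% of all genes. The 2 tables read the same tissue, so their likeness bears on the measurement and not on new rats.

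The differences that involve CA3 depended on the rat number. In a limma fit of subfield by number series, chosen after the values within each series had been seen, the CA1 minus CA3 difference itself differed between the series in both poly-A tables for 17 of 49 members (13.9% of all genes), and the CA3 minus DG difference for 19 (17.2%). Without the 10 libraries nearer to another subfield these were 21 (13.3%) and 20 (17.2%), among them 16 of the 17 and 17 of the 19. For CA1 minus DG, 0 members passed (0.108% of all genes); limma, edgeR and DESeq2 gave 8, 9 and 8 members at an unadjusted p under 0.05 (14.8% of all genes in limma) and 0 after adjustment, and the smallest was Efnb1 (-0.46 ± 0.15, unadjusted p = 0.00219). Here a positive value means a larger CA1 minus CA3 difference in rats numbered from 9000 up. It was positive for Epha4, Epha6, Ephb1, Plxna1, Plxnb3, Sema3b, Sema3c, Sema3e, Sema4d, Sema6a and Sema7a. It was negative for Efnb2, Efnb3, Ephb3, Plxnd1, Sema4f and Sema5b. For CA3 minus DG the same value, from 9000 up minus below 9000, was positive for Efnb2, Efnb3, Plxna3, Plxnd1, Sema3f, Sema4f and Sema5b, and negative for Epha4, Epha5, Epha6, Ephb1, Plxna1, Plxnb3, Sema3b, Sema3c, Sema3e, Sema4d, Sema6a and Sema7a. What the number series stands for cannot be told from the labels, and colony, site, dissection and handling cannot be told apart here.

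**Figure D3:**
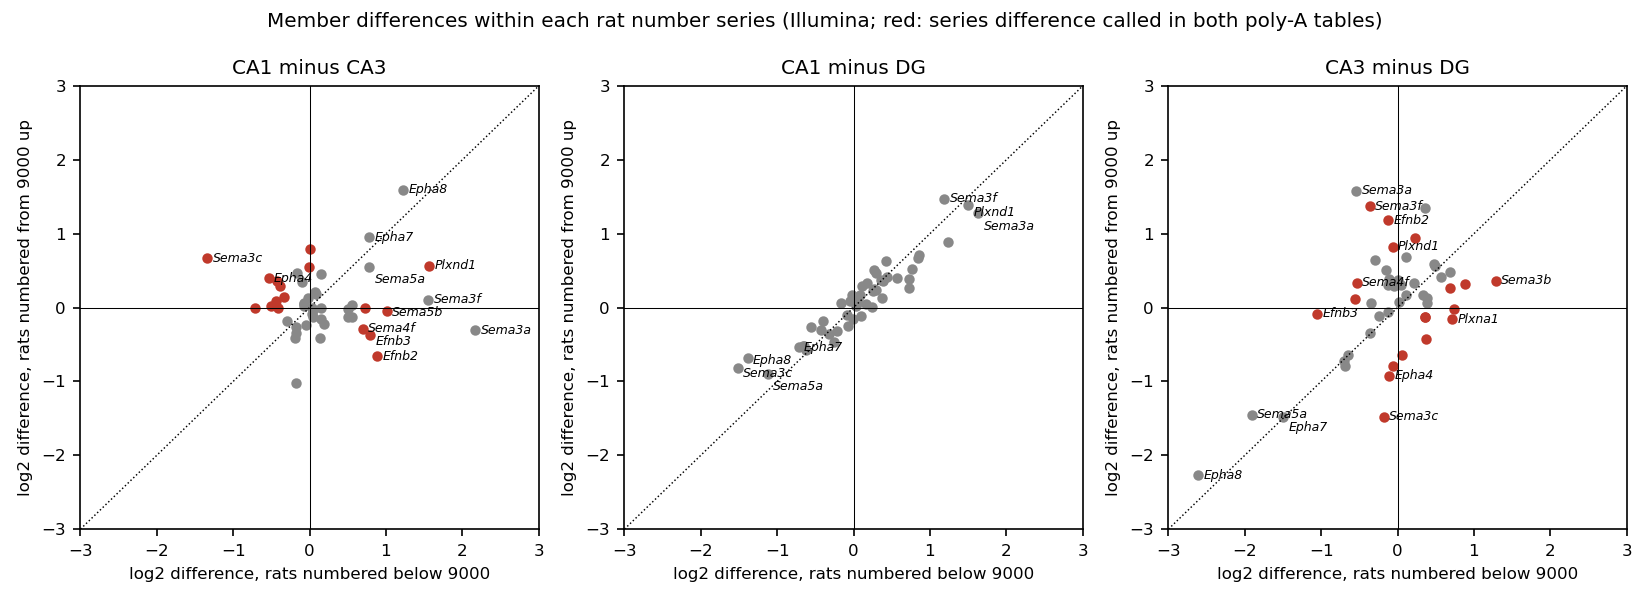
Log2 difference between subfields of each of the 49 tested members in rats numbered below 9000 (x, 18 rats) and from 9000 up (y, 16 rats), Illumina table, with the line of equal differences; red points are members whose difference itself differed between the series in both poly-A tables. In CA1 minus DG no point is red, while in CA1 minus CA3 Sema3c lies at -1.34 and 0.67.

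Sema3c had the largest difference between the series among the 17 members. In CA3 its median was 471 in rats numbered below 9000 (188 to 784) and 189 in those from 9000 up (109 to 492), while in DG the medians were 572 and 574. CA3 exceeded CA1 in 18 of 18 rats of the lower series and in 3 of 16 of the upper. The CA1 minus CA3 difference was -1.34 ± 0.15 in the first (adjusted p = 5.61e-11) and 0.67 ± 0.19 in the second (adjusted p = 0.012; Ion Proton 0.53, adjusted p = 0.144), and the difference between the series 2.00 ± 0.24 (adjusted p = 7.18e-11). The difference from 9000 up was thus of the other sign and missed the threshold in the Ion Proton table, while the difference between the series passed in both. It was 2.08 ± 0.24 without the 10 libraries nearer to another subfield.

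Epha4 changed order in the same way, with CA1 minus CA3 at -0.54 ± 0.09 below 9000 and 0.40 ± 0.11 from 9000 up, and CA3 medians of 5809.6 and 2961. Sema4f, which was called in no contrast over all rats, had the smallest p of the list for a difference between the series (-0.98 ± 0.09, adjusted p = 2.09e-15). Its CA1 library exceeded its CA3 library in 18 of 18 rats below 9000 (0.69 ± 0.07) and in 2 of 16 from 9000 up (-0.29 ± 0.06; Ion Proton -0.21, adjusted p = 0.169). Over all rats Sema4f passed for CA1 minus CA3 in the Illumina table alone (0.23), and without the 10 libraries in both (0.29 and 0.26). Efnb2 had CA1 above CA3 in 17 of 18 rats below 9000 and in 2 of 16 from 9000 up, and was called in each series. Efnb3 had CA1 above CA3 in 17 of 18 and 5 of 16, and was not called from 9000 up (-0.38, adjusted p = 0.107). The differences between the series were 1.14 for Epha4 and -0.98 for Sema4f without the 10 libraries.

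The CA1-specific members rested mostly on the lower series. Plxnd1 in CA3 had a median of 225 (185 to 328) below 9000 and 547 (147 to 876) from 9000 up, and its CA1 minus CA3 difference was 1.57 ± 0.09 and 0.56 ± 0.21 (adjusted p = 0.0603 in the latter). Sema5b, Ephb3 and Sema3f had CA1 minus CA3 differences of 1.01, 0.72 and 1.55 below 9000 against -0.05, -0.01 and 0.11 from 9000 up. Sema3a, which was not specific to CA1 over all rats, had 2.17 and -0.30. The series difference was called in both tables for Plxnd1, Sema5b and Ephb3, and not for Sema3f and Sema3a, which passed in the Illumina table alone. It was -1.11 for Plxnd1, -1.07 for Sema5b and -0.79 for Ephb3 without the 10 libraries. Within the rats from 9000 up, 1 member was specific to CA1 (1.31% of all genes), Plxnc1, and within those below 9000 there were 8 (5.84%): Efnb2, Epha4, Ephb3, Plxnd1, Sema3a, Sema3c, Sema3f and Sema5b.

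**Figure D4:**
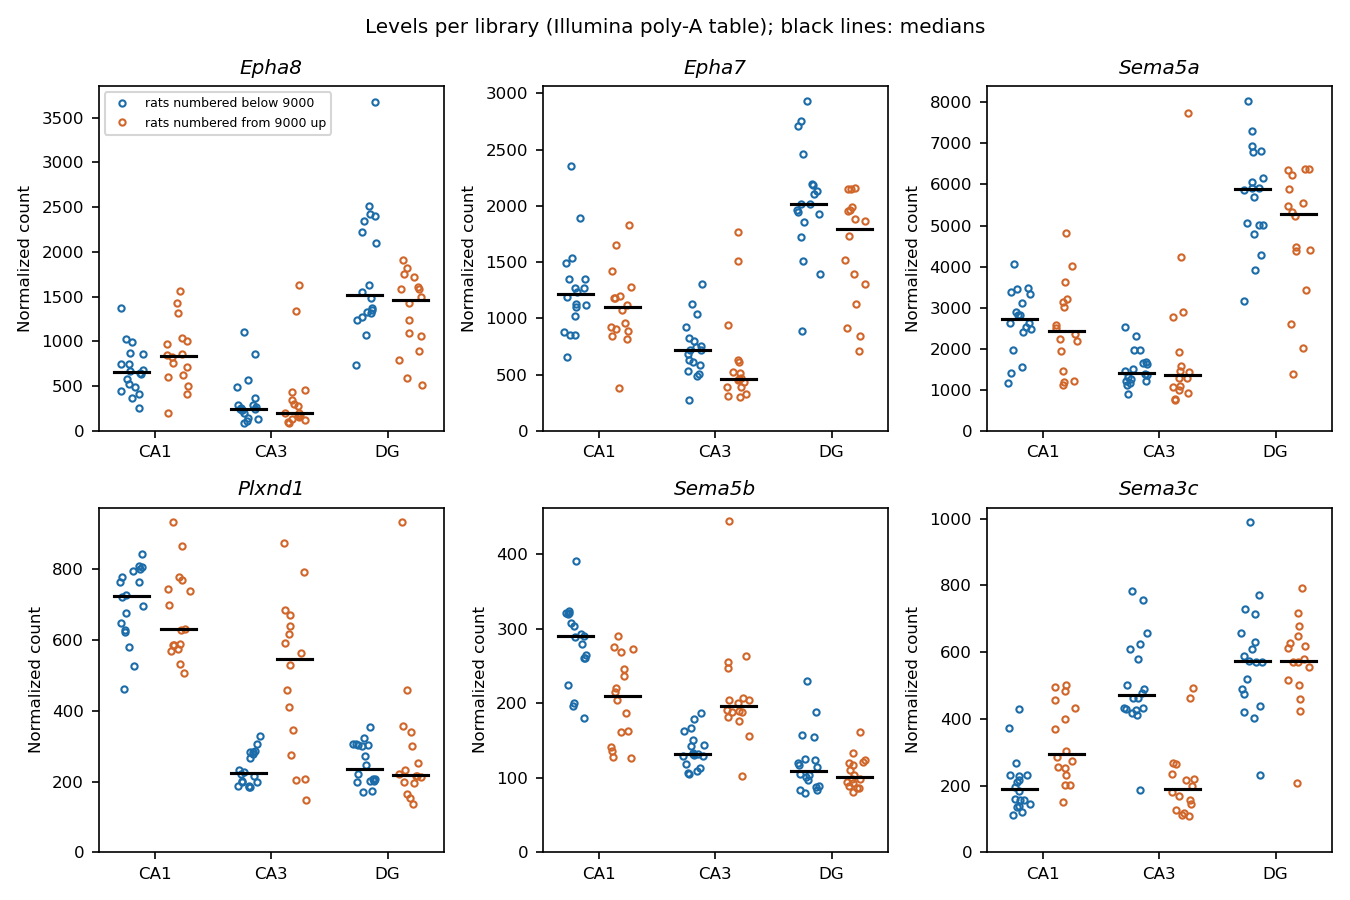
Normalised counts per library (linear axis from 0) of Epha8, Epha7, Sema5a, Plxnd1, Sema5b and Sema3c in CA1, CA3 and DG, with rats numbered below 9000 (18) and from 9000 up (16) side by side and the median as a black line. Epha8, Epha7 and Sema5a keep the order DG, CA1, CA3 in both series, while the CA3 median of Plxnd1 is 225 in one series and 547 in the other, and that of Sema3c 471 and 189.

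Some differences from CA3 were called in both series. Epha8 had CA3 minus DG differences of -2.61 ± 0.23 and -2.27 ± 0.30 in rats below and from 9000, Epha7 -1.50 ± 0.14 and -1.49 ± 0.21, and Sema5a -1.91 ± 0.13 and -1.45 ± 0.26, each past the threshold in both tables within each series. Epha3 and Ephb2 were also lower in CA3 than in DG in both, with -0.69 and -0.79 for Epha3 and -0.70 and -0.72 for Ephb2. For CA1 minus CA3, Epha8 (1.23 and 1.59) and Epha7 (0.78 and 0.95) passed in each series, and Sema5a passed below 9000 (0.78) and not from 9000 up (0.55 ± 0.26, adjusted p = 0.154). For CA1 minus DG, Epha8 (-1.39 and -0.68) and Ephb2 (-0.55 and -0.26) were called below 9000 and not from 9000 up. Over all 51 members, with Efna4 and Epha1 included, 12 had the same order of the subfield means in both series and 24 the same highest subfield. Close means also count as an order here. The same counts were not made over all genes, so they cannot be read as particular to the members. Marker lists moved with the series too: the summed CA1 list had a median of 1231 in CA3 libraries below 9000 (510.3 to 4878) and 2837 from 9000 up (729.5 to 4759.9). The oligodendrocyte list had medians of 165889 and 117677 in CA3 and 57309.5 and 123754 in DG. Their part in the members' values was not tested.

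Genes that act beside the members were counted from lists, by the rule that called 14.4%, 26.9% and 28.5% of all genes for CA1 minus CA3, CA1 minus DG and CA3 minus DG. Of 5 semaphorin co-receptors, 0 were higher and 3 lower in CA1 than in CA3, 1 and 3 in CA1 than in DG, and 2 and 3 in CA3 than in DG. Nrp2, the neuropilin of Sema3f, was lower in CA1 than in CA3 (-0.62 ± 0.14) and DG (-1.20 ± 0.14) and lower in CA3 than in DG (-0.58 ± 0.14), the reverse of the order of Sema3f itself. Nrp1, the neuropilin of Sema3a, had differences of -0.25 ± 0.09, -0.67 ± 0.09 and -0.42 ± 0.09. Of the 19 identifiers of plexin effectors, 1 higher and 1 lower were called for CA1 minus CA3, 3 and 4 for CA1 minus DG, and 6 and 3 for CA3 minus DG. The largest of these were Rnd1, a small GTPase that binds plexins (0.78 ± 0.12 for CA1 minus DG), Mical1, an oxidoreductase that acts on actin (-0.57 ± 0.09), and Dpysl4, of the collapsin response mediator family (-0.54 ± 0.09 for CA3 minus DG, where Rnd1 was 0.37 ± 0.12). For CA1 minus CA3 the largest were Rnd1 (0.41 ± 0.12) and Dpysl3 (-0.36 ± 0.06), which did not pass in both tables.

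Of 18 identifiers of Eph and ephrin effectors, 5 higher and 1 lower were called for CA1 minus CA3, 4 and 4 for CA1 minus DG, and 4 and 5 for CA3 minus DG. Tiam1, a Rac exchange factor that EphB receptors use in spines, was the largest in each contrast (0.87 ± 0.16, -0.95 ± 0.16 and -1.82 ± 0.16), and it had the order DG, CA1, CA3 of Epha8, Epha7 and Ephb2. Vav3, another exchange factor, was next for CA1 minus CA3 (0.72 ± 0.12) and CA3 minus DG (-1.10 ± 0.12). For CA1 minus DG the next was Rgs3, which acts below ephrin-B and is listed under 2 identifiers (0.65 ± 0.11 and 0.53 ± 0.10). The median log2 difference of each list lay within 0.27 of zero in every contrast, beside 0.01 or less for all genes.

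Few members differed with age within a subfield. A member was a seed at an unadjusted p under 0.01 in the Illumina table and was retested when the Ion Proton table gave a one-sided p under 0.05 in that direction. In CA1 2 of 49 members were retested for age, Sema3b and Sema3c (0.851% of all genes), in CA3 0 of 49 (0.402%) and in DG 2 of 48, the same pair (1.09%). At an unadjusted p under 0.05, limma, edgeR and DESeq2 each gave 5 members in CA1 (6.15% of all genes in limma), 2 in CA3 (3.31%) and 2 in DG (5.2%), and in CA3 each gave 0 after adjustment. The median log2 difference over the members lay within 0.05 of zero in each subfield, as did that over all genes.

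Sema3b, a secreted semaphorin, was higher in aged rats. In CA1 the 10 young libraries had a lowest, median and highest value of 163, 221 and 393 and the 24 aged libraries of 219, 362 and 525. The groups overlapped, but 23 of 24 aged rats exceeded the median of the young. The difference was 0.64 ± 0.14 (limma unadjusted p = 5.13e-05, adjusted p = 0.022), the 1 member past an adjusted p of 0.05 for age in any subfield in limma with all libraries. The limma adjusted p of Sema3b passed 0.05 when the CA1 library of R1922, R1923, R2176, R2221 or R9881 was left out, and was at most 0.0821. The Ion Proton difference was 0.41 ± 0.20, and edgeR on the recovered reads gave an adjusted p of 0.0667 in the Illumina table. In DG the young values were lowest 101, median 136, highest 261 and the aged values lowest 117, median 188, highest 367, and 21 of 24 aged rats exceeded the young median. The DG difference was 0.49 ± 0.15 (limma unadjusted p = 0.0031, adjusted p = 0.337). In CA3 it was 0.40 ± 0.17 (limma unadjusted p = 0.0285) and was not retested. Sema3b kept its retest in both subfields when any 1 of the 34 libraries was left out, with differences from 0.58 to 0.72 in CA1 and 0.43 to 0.59 in DG. By number series the CA1 difference was 0.69 ± 0.13 below 9000 and 0.61 ± 0.19 from 9000 up. Without the 7 deepest rats the DG difference was 0.42 ± 0.18 (limma unadjusted p = 0.0272) and no longer retested.

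Sema3c was lower in aged rats. In DG the young values were lowest 555, median 715, highest 989.5 and the aged values lowest 208, median 545, highest 657, and 0 of 24 aged libraries reached the young median, although the ranges overlapped. The difference was -0.50 ± 0.13 (limma unadjusted p = 6.72e-04, adjusted p = 0.114; Ion Proton -0.52 ± 0.19). In CA1 the young values were lowest 218, median 319, highest 501 and the aged values lowest 113, median 202, highest 496, and 4 of 24 aged rats exceeded the young median. There the difference was -0.62 ± 0.20 (limma unadjusted p = 0.00424, adjusted p = 0.329). In CA3, where Sema3c depended on the number series, it was 0.12 ± 0.31. The CA1 retest was lost when 1 of the young libraries of rats R2221, R9876, R9879 and R9881 was left out (-0.58, -0.57, -0.55 and -0.56 in that order, unadjusted p just over 0.01), and the DG retest held in all 34. With DESeq2 on the recovered reads the DG difference of Sema3c had an adjusted p of 0.0368. Without the libraries nearer to another subfield the DG difference was -0.38 ± 0.09 (adjusted p = 0.0382). Among the rats from 9000 up alone, Sema3c was not retested in CA1 (-0.53 ± 0.24) or in DG (-0.41 ± 0.20), with the same sign as below 9000 (-0.65 ± 0.21 and -0.59 ± 0.17), but below 9000 the Ion Proton step was missed in DG. Sema3b was not retested in CA1 from 9000 up since the Ion Proton step was missed.

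In CA3 the member with the smallest p for age was Efnb1 (-0.32 ± 0.13, limma unadjusted p = 0.0187, not retested). It was 0.06 ± 0.11 below 9000 and -0.72 ± 0.20 from 9000 up, the series that holds rat R9876. Its young values were lowest 159, median 195, highest 451 and its aged values lowest 95.0, median 182, highest 242. The young value of 451 was that of rat R9876, whose CA3 library also had the highest summed leptomeninges list of all CA3 libraries (11269, against 232 to 1252 in the others). Microglia markers moved with age beside these members: 3 of 5 were retested as higher in aged CA1 and DG and 1 of 5 in CA3, with summed medians of 2708 (range 2421 to 3279) in young and 3316 (2492 to 4557) in aged CA1, and of 2308 (1877 to 2878) and 2693 (1999 to 3334) in DG. The oligodendrocyte, precursor, endothelium and leptomeninges lists had 0 genes retested for age. The age results of the astrocyte, choroid plexus, interneuron and newborn neuron lists are not given here. The study lists Gfap, a gene of the astrocyte list, as increased with age in all 3 subfields. The part of the microglia list was not tested.

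The comparison of AI with AU rats asked which genes go with maze impairment among aged rats. In CA1 1 of 49 members was retested, Sema3a (0.635% of all genes), in CA3 0 (0.0216%) and in DG 0 (0.124%). Sema3a in CA1 had a lowest, median and highest value of 6.43, 17.0 and 28.7 in the 12 AU rats and 10.3, 28.6 and 72.3 in the 12 AI rats, with 9 of 12 AI libraries above the AU median and overlapping ranges. The difference was 0.78 ± 0.27 (limma unadjusted p = 0.0088, adjusted p = 0.644; Ion Proton 0.86 ± 0.47). The young CA1 values were lowest 7.04, median 28.1, highest 70.1. The retest was lost when the library of any 1 of rats R1930, R1931, R2189, R2230, R2231, R2232, R2233, R2235, R9782, R9860, R9865, R9869, R9870, R9874 and R9875 was left out, where the difference lay between 0.65 and 0.79, and it was kept in the other 9 of 24. It was also lost with the number series as a covariate (0.75 ± 0.27), without the 7 deepest rats and without the libraries nearer to another subfield (0.74 ± 0.28), and with edgeR, where the Ion Proton step was missed.

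Plxna1, a plexin-A that pairs with neuropilin 1 for Sema3a, had the smallest p of the list in CA1 and moved the other way. All 12 AI libraries were below the AU median, with AU values of lowest 923, median 1382, highest 1777 and AI values of lowest 839, median 1135, highest 1356. The Illumina difference was -0.30 ± 0.09 (limma unadjusted p = 0.00229, adjusted p = 0.561), and it was not retested in the Ion Proton table (-0.14 ± 0.17). Sema3e in CA1 was also a seed, lower in AI by -0.28 ± 0.10 (limma unadjusted p = 0.00832, adjusted p = 0.644), and was not retested. Efna5 in CA1 (0.90 ± 0.32, limma unadjusted p = 0.0101) missed the seed threshold. In CA3 the smallest p was that of Epha10 (-0.24 ± 0.10, limma unadjusted p = 0.021), with 3 of 12 AI libraries above the AU median, AU values of lowest 333, median 434, highest 645 and AI values of lowest 308, median 381, highest 483. In DG it was Plxna1 again, here higher in AI by 0.16 ± 0.09 (limma unadjusted p = 0.0731). No member passed an adjusted p of 0.05 for maze class in any subfield in limma, edgeR or DESeq2, and limma gave 6, 1 and 0 members at an unadjusted p under 0.05 in CA1, CA3 and DG, as edgeR and DESeq2 each did. Of all genes 5.71%, 1.4% and 3.85% passed that limma p. Of the pathway lists, 1 gene was retested for maze class, Mical1, lower in AI in CA1 (-0.42 ± 0.13), and none for age. The marker lists of other cell types had 0 genes retested for maze class in CA1.

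**Figure D5:**
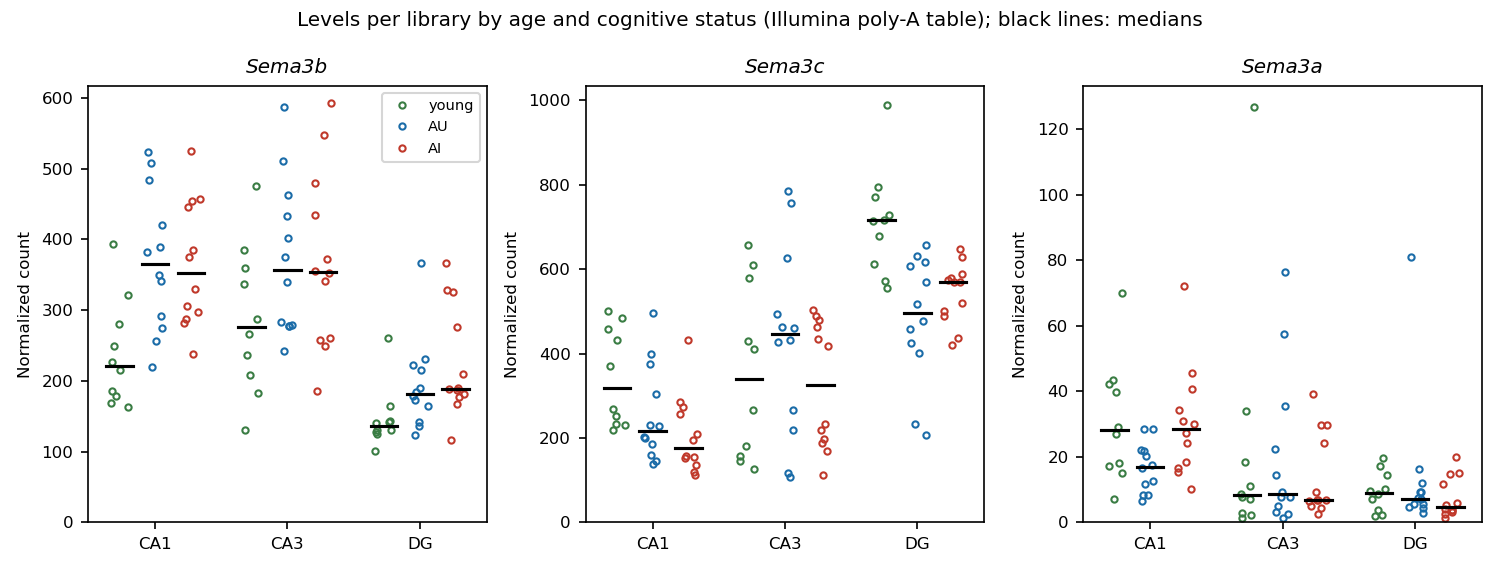
Normalised counts per library (linear axis from 0) of Sema3b, Sema3c and Sema3a in CA1, CA3 and DG of young (10), AU (12) and AI (12) rats, with the median as a black line. In DG the young Sema3c libraries lie from 555 to 989.5 and the aged ones from 208 to 657, and in CA1 the young Sema3b median is 221 against 365 in AU and 352 in AI.

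Each class of aged rats was also set against the same 10 young rats, so the values share their controls and are given side by side. For AU minus young, 0 of 49 members were retested in CA1 (0.671% of all genes), 0 in CA3 (0.287%) and 1 of 48 in DG (0.663%), Sema3c (-0.62 ± 0.15). At an unadjusted p under 0.05, limma, edgeR and DESeq2 each gave 4 members for AU in CA1 (4.86% of all genes in limma), and 3, 2 and 2 in CA3 (2.89%). After adjustment limma and edgeR gave 0 for AU in each subfield, and DESeq2 gave 1 in CA1 and 1 in DG. For AI minus young, 2 were retested in CA1 (0.829%), Sema3b (0.63 ± 0.16) and Sema3c (-0.77 ± 0.23), 0 in CA3 (0.351%) and 1 in DG (0.991%), Sema3b (0.59 ± 0.17). At an unadjusted p under 0.05 these tools gave 9, 8 and 8 members for AI in CA1 (7.81% of all genes in limma) and 0, 1 and 2 in CA3 (3.07%), with 0 after adjustment in each. Sema3b in CA1 had the same size in AU rats (0.64 ± 0.16, limma unadjusted p = 3.02e-04) and missed the Ion Proton step there (0.38 ± 0.23). Sema3c in DG was -0.38 ± 0.15 in AI rats (limma unadjusted p = 0.0151) and in CA1 -0.47 ± 0.23 in AU rats. Of the DG libraries nearer to another subfield, 3 were from AU rats, 1 from an AI rat and 0 from young rats. The Sema3c values of each class without them are not given here. Sema3b in DG was 0.39 ± 0.17 in AU rats. In CA3 the smallest p was that of Efnb1 for AU (-0.36 ± 0.15, limma unadjusted p = 0.0196) and of Sema3b for AI (0.38 ± 0.20, limma unadjusted p = 0.0673). The AI minus AU differences of Sema3b and Sema3c were -0.01 and -0.29 in CA1 and 0.20 and 0.24 in DG, none retested.

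Whether an age difference itself differed between subfields was tested by the interaction in the Illumina table. No member passed between CA1 and CA3, CA1 and DG, or CA3 and DG, and no gene did either (0.0%, 0.0% and 0.0% of 14179 genes). At an unadjusted p under 0.05, limma gave 1, 0 and 1 members (1.93%, 0.353% and 1.06% of all genes), edgeR 5, 1 and 1, and DESeq2 5, 1 and 1, with 0 after adjustment in each. The smallest p values were those of Sema3c between CA1 and CA3 (-0.74 ± 0.33, limma unadjusted p = 0.0293), Efna5 between CA1 and DG (-0.84 ± 0.43, limma unadjusted p = 0.0567) and Efnb1 between CA3 and DG (-0.32 ± 0.16, limma unadjusted p = 0.0495). The age differences of Sema3b and Sema3c in CA1 and DG were therefore not shown to be particular to those subfields. In the Illumina table, the age differences of the members ran from -0.62 (Sema3c) to 0.64 (Sema3b) in CA1, from -0.45 (Efna4) to 0.40 (Sema3b) in CA3 and from -0.50 (Sema3c) to 0.57 (Efna5, not retested) in DG.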

How the data were processed

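RNA from CA1, CA3 and DG of 34 rats was sequenced as poly-A libraries on Illumina and Ion Proton instruments, and a further WT table was deposited whose library type, aligner and counter were not given in the sources used here. For the Illumina table the submitters' processing notes name bcl2fastq 2.17, cutadapt 1.8.3, STAR 2.5, featureCounts 1.4.4, DESeq2 1.16.1 and build rn5, and for the Ion Proton table the study's methods name TopHat2 and Bowtie2 in Partek Flow. The labels name a stranded mRNA kit and the study's methods another, so overlapping antisense genes may share reads. The deposited signal values are gene read counts that the authors divided by 1 size factor per library. All columns (100% of genes at a tolerance of 0.01 reads) gave whole reads once multiplied back, with 48 listed genes without a symbol. No column lacked a sample.

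Because the values are normalised, limma 3.58.1 (R 4.3.3) with a mean-variance trend was run on log2(value + 1) over all genes with a mean of at least 10, adjusting by Benjamini-Hochberg over all genes. Subfield and interaction fits used all libraries, and age and maze class fits were made within each subfield. edgeR 4.0.16 and DESeq2 1.42.0 on the recovered whole reads, quantile normalisation, an added count of 0.1, a fit over all detected genes, the number series as covariate or each series alone, and left-out libraries were alternatives. Scripts were tested on simulated data. The members, gene lists and rules were chosen with earlier results of these data known. Full values were given for subfield-specific members with a mean difference of at least 0.5 (up to 8 per subfield), the 2 largest per contrast and every retested member or, where none was, the member with the smallest p.

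In the age and maze class fits, made within a subfield, p-values measure the spread between rats. The subfield, interaction and number series fits pooled the libraries of all subfields without a term for the rat. Their p-values measure the spread between libraries within groups and leave out the pairing by rat. The rat was a block only in an alternative fit of the subfield differences. The 3 libraries of a rat share the animal: the median correlation of their deviations from the group means was 0.0953 in the Illumina and 0.0705 in the Ion Proton table, against -0.00479 and -0.00302 between rats. Of 531 pairs of replicates per table, 0 were identical, and the lowest chi-square per degree of freedom was 1.93, so every library was counted. Promoters were matched by symbol for 41 of the 51 members.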

Additional observations from a re-analysis of the deposited data

Results flagged for a closer look

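Among the 147 groups of 10 young libraries (49 members in 3 subfields), 20 (13.6%) held a highest or lowest library whose gap to the next exceeded Dixon's critical value. That value flags about 1 in 20 groups of independent, normally distributed values. Here it was applied to normalised counts on the linear scale, the groups share libraries, and the share over all genes is not given. An excess over chance is therefore not shown. The flagged groups fell on few libraries. The CA3 library of young rat R9876 was highest for Efnb1 (451), Epha2 (90.7), Ephb4 (259.5), Plxnb2 (2037), Sema3a (127) and Sema3g (642), and its CA1 library for Efna5 (82.6). This CA3 library also had summed levels of 11269 for the leptomeninges list and 6189 for the endothelium list, where the other CA3 libraries had 232 to 1252 and 1025 to 3329; their part was not tested.

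The DG library of young rat R9881 was lowest for Epha4 (4383) and Ephb2 (164) and highest for Plxnb2 (1372), Plxnb3 (1570.4), Sema3b (261) and Sema3f (98.1). It had a summed oligodendrocyte list of 226046, where the other DG libraries had 46350.5 to 204446, and a summed DG list of 1357, where they had 595 to 7820.3. It was also the highest DG library for the choroid plexus (3589, others 6.48 to 927), oligodendrocyte precursor (5745, others 2506 to 4949) and interneuron (7430.2, others 3183 to 7014) lists, and the second highest for the CA3 list (11787); their part was not tested.

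The CA3 library of young rat R9879 was highest for Epha10 (631) and Sema5b (445), that of R2221 for Plxnb3 (3100.03) and Sema6d (1988), and that of R1923 for Epha3 (135) and Epha6 (562). The DG library of R2221 was highest for Epha8 (3673).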

How the results depend on the processing

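Counts of members kept within 1.5 times of their value in 324 recomputations and moved further in 62, where the cause was not tested. For CA1 against CA3, 21 members were called in rats below 9000, 17 without the libraries nearer to another subfield and 19 with the WT table as the second table, against 11. Specific to CA1 were 8 below 9000 and 1 from 9000 up, against 5. Specific to CA3 were 8 with edgeR, 9 with DESeq2, 11 below 9000, 10 without the libraries nearer to another subfield and 12 with the WT table, against 5.

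For age, the CA1 count of 2 was 0 from 9000 up and ranged from 1 to 2 when 1 library was left out. The CA3 count of 0 was 1 from 9000 up (Efnb1), in the series that holds the CA3 library of young rat R9876. The DG count of 2 was 1 below 9000, 1 from 9000 up (Sema3b in each) and 1 without the deepest rats (Sema3c). For maze class in CA1, the count of 1 was 0 with edgeR, with the series as covariate, below 9000 and without the deepest rats, 2 without the libraries nearer to another subfield (Efna5 and Epha6), 3 with the WT table (Plxna1, Sema3a and Sema3e), and 0 to 3 when 1 library was left out. For AU against young in CA1, the count of 0 was 1 with quantile normalisation, from 9000 up, without the deepest rats and with the WT table, 2 with the series as covariate, and 3 with edgeR and with DESeq2. Sema3b was retested in each of these. In CA3 it was 1 from 9000 up, and in DG the count of 1 was 2 with the covariate, 0 below 9000, 0 from 9000 up and 2 without the DG library of R9881. For AI against young, the CA1 count of 2 was 0 from 9000 up, and the DG count of 1 was 2 with edgeR, with DESeq2 and without the libraries nearer to another subfield, and 0 without the deepest rats.

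With the rat as a replicate block, 13, 29 and 33 members were called between CA1 and CA3, CA1 and DG, and CA3 and DG. Specific to CA1, CA3 and DG were 6, 7 and 23 members. None of these counts was beyond 1.5 times the count without the pairing. The counts of this section are given without the share of all genes under the same setting. They cannot be read as particular to the members. Of the 21 differences of named members that were recomputed, 213 values kept their side of the threshold, 13 lost it and none changed sign. Outside these 21, signs did differ between the number series, for example for Sema5b, Ephb3 and Sema3c between CA1 and CA3 and for Efnb1 by age in CA3. No scaling moved the median of all genes by over 0.1. The rats below 9000 were 5 young, 6 AU and 7 AI, and those from 9000 up 5, 6 and 5.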
